A study of Drosophila melanogaster with 35 samples.

Results

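The transcripts described here are 106 of the 15473 on the array. Their mean level in the pupal wing was at least 2-fold that of control in both transgene lines of the study, E2F1DP and Cbt, at both pupal stages. The rule used group means of log2 intensity. It asked for a difference from control of at least 1 log2 unit in each of the lines at each of the 24h and 36h stages, and for a difference under 1 unit in E2F1DP in the larva. The first 4 limits were met by 111 transcripts, and 5 of these were left out because they stood at or above the larval limit. The pupal differences from control, and the larval difference of E2F1DP, chose the transcripts and are therefore given as a description. The larval arrays of Cbt took no part in the choice.

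E2F1 and DP form a heterodimer that binds promoters of genes for DNA replication and mitosis and drives cells into S phase. Cabut is a zinc finger transcription factor of the Krüppel-like family. Cells of the wing proliferate in the larval imaginal disc. In the pupa they leave the cell cycle and differentiate into the veined epithelium of the adult wing. The series title sets overexpression of Cabut and of the E2F1 and DP pair side by side in that tissue.

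All 9 groups carried the driver apterous-gal4, the reporter UAS-GFP and tubulin-Gal80temp.sens., a heat-sensitive repressor of Gal4. Control animals had no further transgene, E2F1DP animals also had UAS-dE2F1 and UASdDP, and Cbt animals also had UAS-Cabut. Animals were grown at 18 °C and moved to 28 °C, where Gal4 is released from its repressor. Wings were taken from wandering larvae of the last instar (L3) and at 24h and 36h after pupa formation, with 10 wings in a sample. Each group had 4 samples, which the submitters describe as independently isolated. E2F1DP at L3 had 3, since the submitters left out 1 sample on quality grounds. The apterous driver is active in dorsal wing cells, so a sample of whole wings mixes cells with and without the transgene, and in RNA of a whole tissue fewer cells of a type and less RNA per cell cannot be told apart.

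Array medians ran from 9.25 to 10.02 in log2 intensity. The files name features by FlyBase transcript ID, and none of the 106 could be tied to a gene through the RefSeq gene table used here, so the roles of the members are not described and they appear by ID. The levels of E2F1, DP and Cabut and of cell type markers were not analysed here for the same reason. Of the 106 transcripts, 81 were measured with 5 probes and 25 with 4. They include 6 pairs with consecutive IDs, 12 transcripts in all, whose correlation over the 35 arrays ran from 0.535 to 0.996. The files do not say whether the transcripts of such a pair share a gene, and 100 remain if each pair is counted once.

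The question of where these transcripts stand in normal wing development was taken to the control arrays. Most were transcripts of the larval wing with a lower level in the pupa. In control, 96 of the 106 (90.6%) had a mean at least 1 log2 unit lower at both pupal stages than at L3. The same held for 8.71% of all transcripts, that is for 1347, and 7.13% of those 1347 are among the 106. Control arrays took part in choosing the transcripts, so these shares carry no test. Of the other 10, 5 stayed within 1 unit of their L3 mean at both pupal stages, 3 were at least 1 unit higher at both, and 2 were higher at 24h only. Across the 96 larval-high transcripts the median difference from L3 in control was -3.40 log2 units at 24h, with a range from -5.76 to -1.04, and -4.63 at 36h, with a range from -7.82 to -1.77. Between 24h and 36h control was lower again by at least 1 unit for 70 of the 96, beside 5.55% of all transcripts.

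The median level of the 106 transcripts on each array shows the pattern in its simplest form. At L3 it lay between 12.51 and 12.61 on the 4 control arrays, between 12.59 and 12.71 on the 3 E2F1DP arrays, and between 12.27 and 12.50 on the 4 Cbt arrays. At 24h it lay between 8.58 and 9.68 in control, between 12.61 and 12.99 in E2F1DP, and between 11.26 and 11.69 in Cbt. At 36h it lay between 7.41 and 8.05 in control, between 11.79 and 12.14 in E2F1DP, and between 9.20 and 10.99 in Cbt. The 3 lines thus stood close together in the larva, and in the pupa the order was E2F1DP, Cbt, control, with no overlap of the arrays at either stage. The pupal separation from control is what the rule asked for. The rule set no limit between E2F1DP and Cbt, but it used the pupal arrays of both, so their separation carries no test.

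**Figure D1:**
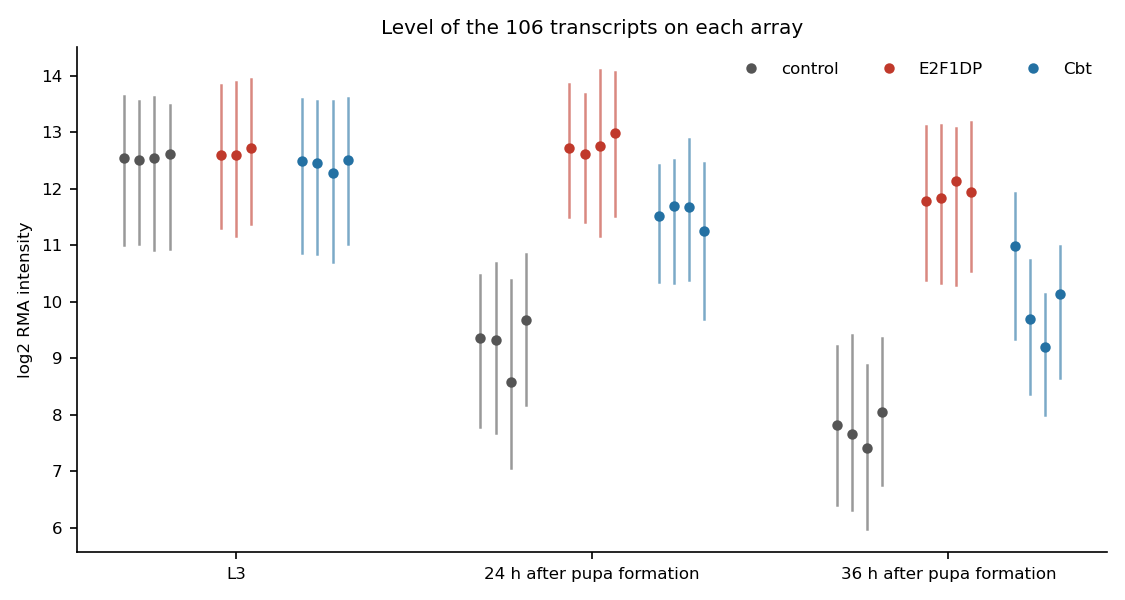
Median level of the 106 transcripts (log2 intensity, vertical axis) on each of the 35 arrays, grouped by line and stage, with bars from the lower to the upper quartile of the 106. At 24h the 4 E2F1DP arrays sit between 12.61 and 12.99, the 4 Cbt arrays between 11.26 and 11.69 and the 4 control arrays between 8.58 and 9.68.

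At 24h the difference from control had a median over the 106 of 3.44 log2 units in E2F1DP, with a range from 1.02 to 5.79, and of 2.08 in Cbt, with a range from 1.00 to 4.20. At 36h the medians were 3.95 in E2F1DP, with a range from 1.02 to 8.71, and 1.82 in Cbt, with a range from 1.01 to 4.35. Over all transcripts the medians of the same 4 differences lay between -0.08 and -0.01. The difference was larger at 36h than at 24h for 76 of the 106 in E2F1DP and for 47 in Cbt. How many of all transcripts did the same was not counted. Both lines were compared with the same control arrays.

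With limma and a Benjamini-Hochberg adjusted p under 0.05 over all transcripts, 106 were called higher in E2F1DP at 24h, where 12.4% of all transcripts were, and 104 at 36h, where 12.3% were. In Cbt 105 were called higher at 24h, beside 5.97% of all, and 100 at 36h, beside 4.76%. Every E2F1DP array stood above every control array for 102 of the 106 at 24h (9.43% of all transcripts) and for 105 at 36h (14.5%). Every Cbt array stood above every control array for 102 at 24h (6.45%) and for 97 at 36h (7.13%). All 4 separations held together for 90 of the 106 (1.09% of all). Since the rule used these contrasts, the counts only describe how well single arrays bear out the group means.

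FBtr0073806 led the members in both lines at 36h and in E2F1DP at 24h. It had the highest difference of any transcript on the array in E2F1DP at 36h, 8.71 (SE 0.37), and its lowest pupal difference, 4.02, was also the highest of all transcripts. In control it read 14.49, 14.82, 14.79 and 14.47 at L3, 9.77, 10.28, 7.73 and 9.96 at 24h, then 6.51, 6.88, 6.58 and 7.32 at 36h. In E2F1DP it read 15.32, 15.35 and 15.17 at L3, 15.36, 15.47, 14.89 and 15.18 at 24h, then 15.54, 15.40, 15.56 and 15.63 at 36h. The level in E2F1DP was thus as high in the pupa as in the larva, while control was lower on every later array. In Cbt it read 14.47, 14.67, 14.51 and 14.46 at L3, 13.47, 13.82, 13.73 and 12.80 at 24h, then 11.55, 10.94, 10.13 and 12.07 at 36h. The Cbt arrays lay between the other lines at both pupal stages without overlap.

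FBtr0070258 had the next highest difference in E2F1DP at 24h. At 24h its control mean was 7.47 ± 0.444 (SD, n = 4), and it read 13.20, 13.27, 13.17 and 13.36 in E2F1DP, a difference of 5.77 (SE 0.26). Cbt read 10.87, 11.38, 11.12 and 10.77 at that stage, above every control array and below every E2F1DP array. Its means at 36h were 6.24 in control, 12.32 in E2F1DP and 8.77 in Cbt, and its L3 means were 12.18, 12.78 and 12.37. FBtr0082279 had the next highest difference in E2F1DP at 36h, 7.74 (SE 0.32). At 36h it read 6.66, 6.83, 5.77 and 6.82 in control, 14.19, 14.37, 14.08 and 14.41 in E2F1DP, and 11.46, 9.99, 9.11 and 10.36 in Cbt. The E2F1DP level at 36h was the level that all lines had in the larva, with L3 means of 13.89 in control, 14.20 in E2F1DP and 13.74 in Cbt. At 24h its means were 9.06, 14.32 and 12.10.

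The highest differences in Cbt at 24h belonged to FBtr0084692 and FBtr0080215. FBtr0084692 read 5.59, 5.47, 4.93 and 4.96 in control at 24h, 9.48, 9.65, 9.48 and 9.15 in Cbt, and 10.67, 10.17, 10.39 and 10.62 in E2F1DP. The Cbt difference was 4.20 (SE 0.34) and the E2F1DP difference 5.22 (SE 0.34). Both lines lay far above control, and Cbt lay below E2F1DP on every array. At 36h it read 4.13, 4.15, 4.35 and 4.46 in control, 8.60, 8.49, 8.64 and 8.80 in E2F1DP, and 8.82, 6.53, 5.64 and 7.09 in Cbt. Replicate 1 of Cbt then read slightly more than any E2F1DP array, and the other 3 Cbt arrays read less. Its L3 means were 10.99 in control, 10.72 in E2F1DP and 10.59 in Cbt. FBtr0080215 had means of 12.35 in control, 12.40 in E2F1DP and 12.19 in Cbt at L3, of 6.88, 11.90 and 11.07 at 24h, and of 6.25, 11.12 and 9.24 at 36h. Its Cbt difference was 4.19 (SE 0.35) at 24h. These 2 transcripts also had the lowest 24h level relative to L3 in control.

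FBtr0087641 had, after FBtr0073806, the highest difference in Cbt at 36h, 3.99 (SE 0.39). It read 6.83, 6.67, 6.21 and 6.53 in control at 36h and 12.27, 9.78, 9.45 and 10.71 in Cbt, so replicate 1 again led the Cbt arrays. E2F1DP read 11.34, 11.61, 11.27 and 11.44. Its means were 13.23 in control, 13.41 in E2F1DP and 13.08 in Cbt at L3, and 8.34, 13.22 and 12.22 at 24h. FBtr0078090, with FBtr0073806, had the lowest 36h level relative to L3 in control, with means of 13.39 at L3, 8.22 at 24h and 5.84 at 36h. The E2F1DP means were 13.75, 13.32 and 12.73 and the Cbt means 13.44, 11.60 and 9.07 at the same stages.

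**Figure D2:**
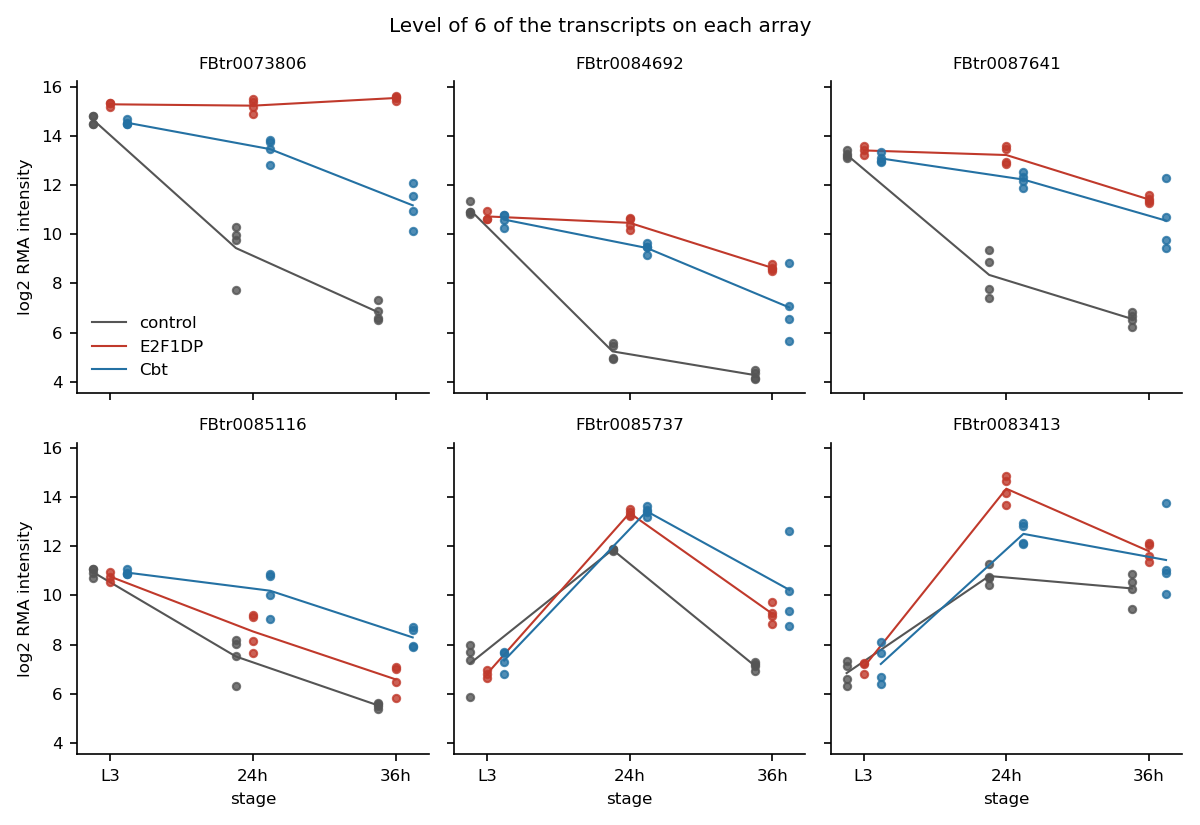
Level on each array (log2 intensity) of FBtr0073806, FBtr0084692, FBtr0087641, FBtr0085116, FBtr0085737 and FBtr0083413 at L3, 24h and 36h in the 3 lines, with lines joining the group means. FBtr0073806 stays between 14.89 and 15.63 in E2F1DP at all stages, while control goes down to between 6.51 and 7.32 at 36h.

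At the edge of the rule the smallest of the 4 pupal differences was 1.00 for FBtr0079817 and 1.01 for FBtr0082203. Just outside stood values of 0.999, 0.996 and 0.995. FBtr0079817 was nearest to the limit in Cbt at 24h, where its mean was 12.59 against 11.58 in control and 14.50 in E2F1DP. Its Cbt difference from control at 36h was 1.25. Its means at 36h were 9.24 in control, 13.90 in E2F1DP and 10.48 in Cbt, and at L3 they were 13.95, 14.22 and 13.79. FBtr0082203 was near the limit in Cbt at 36h, where it read 6.15, 6.23, 6.05 and 6.60 against 5.39, 5.45, 4.83 and 5.30 in control and 8.77, 9.11, 8.98 and 9.12 in E2F1DP. Both are strong members in E2F1DP that only just entered through Cbt. The means of FBtr0082203 were 9.75 in control, 10.05 in E2F1DP and 9.64 in Cbt at L3, and 5.94, 9.58 and 8.02 at 24h. On the larval limit the members nearest to it had E2F1DP differences at L3 of 0.84, 0.90 and 0.94, and the 5 transcripts beyond it had 1.27, 1.37, 1.38, 1.65 and 1.87.

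A further description asked how much of the developmental change of control was missing in each line. For each of the 96 larval-high transcripts the difference of a line from control was divided by the difference of control from its own L3 mean, so that 0% stands for the control level of that stage and 100% for the level of the control larva. The median over the 96 was 105% in E2F1DP at 24h and 91.6% at 36h. It was 65.8% in Cbt at 24h and 42.6% at 36h. Array by array the median ran from 101% to 108% in E2F1DP at 24h and from 89.7% to 93.0% at 36h. In Cbt it ran from 58.9% to 69.9% at 24h, and at 36h the 4 arrays gave 58.6%, 38.7%, 27.0% and 44.3%. Single transcripts spread widely, from 29.7% to 166% in E2F1DP at 24h, from 17.1% to 140% in E2F1DP at 36h, from 35.5% to 134% in Cbt at 24h and from 19.4% to 96.5% in Cbt at 36h. At the median E2F1DP was thus near the larval level, and Cbt stood between that level and control, nearer to control at 36h. The rule asked for a difference from control of at least 1 unit, so 0% could not occur and the shares carry no test.

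Measured against its own larval mean, E2F1DP was within 1 log2 unit for 88 of the 96 at 24h, a range that held 87.8% of all transcripts, and for 62 at 36h, beside 80.0% of all. The other 8 and 34 were at least 1 unit below it. Cbt was within 1 unit of its own larval mean for 44 of the 96 at 24h, beside 82.2% of all transcripts, and for 2 at 36h, beside 72.1%. The other 52 and 94 were at least 1 unit below it. Cbt was lower at 36h than at 24h for all 96, with a median difference of -1.57, where 9030 of all 15473 transcripts were lower. E2F1DP was lower at 36h for 84 of the 96, with a median of -0.59, where 8184 of all were lower.

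**Figure D3:**
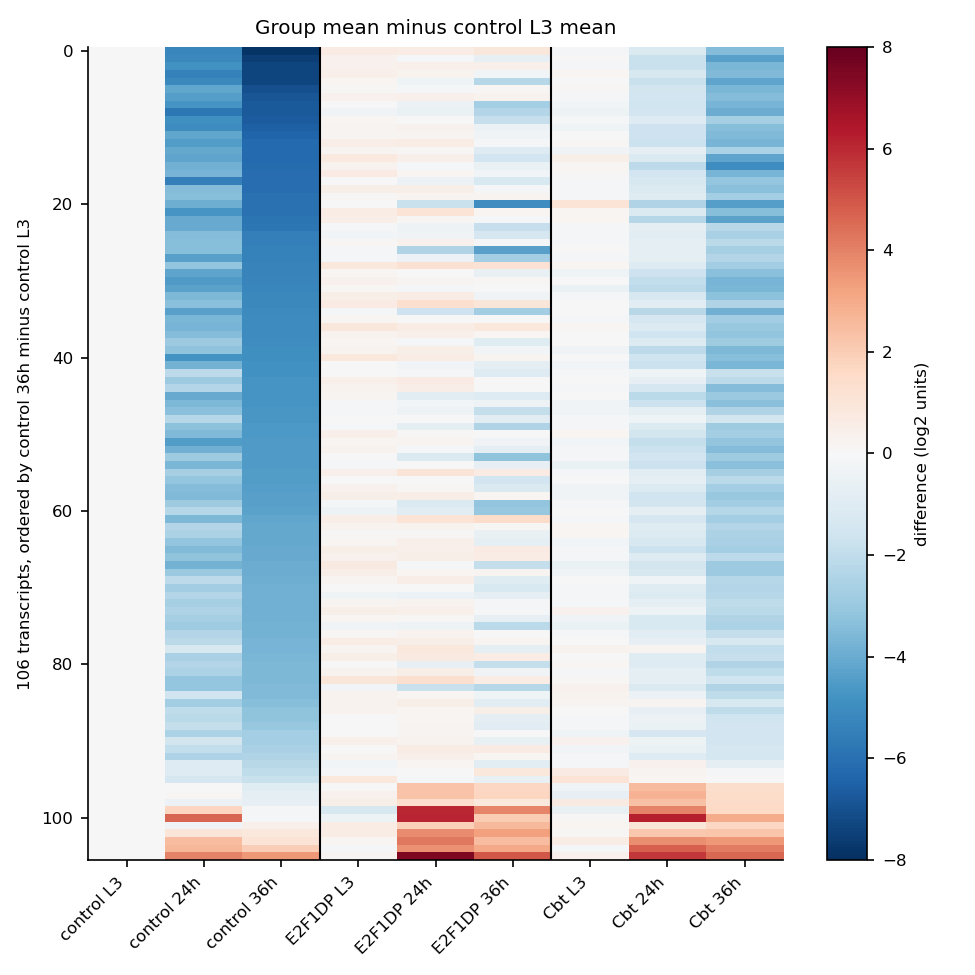
Mean level of each group minus the control mean at L3 (log2 units, colour) for the 106 transcripts, ordered from top to bottom by the control difference between 36h and L3. At 36h control is at least 1 unit below the control larva for all 96 larval-high transcripts, Cbt for 93 of them and E2F1DP for 27.

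The 62 transcripts that E2F1DP held near its larval mean at 36h were set beside the 34 that it did not. The median control level at 36h was 7.91 for the 62 and 6.81 for the 34. The median control difference between 36h and L3 was -4.62 for the 62 and -4.67 for the 34. The median Cbt difference from control at 36h was 1.74 for the 62 and 1.99 for the 34. The median E2F1DP difference from control at 36h was 4.66 for the 62 and 2.81 for the 34. The split was made on E2F1DP at 36h, so the last pair of values follows from it, and the others carry no test.

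Cbt was next set beside E2F1DP directly. The Cbt mean was below the E2F1DP mean for 95 of the 106 at 24h, beside 45.8% of all transcripts, and for 94 at 36h, beside 48.6%. The median difference of Cbt from E2F1DP was -1.25 at 24h and -1.95 at 36h, and over all transcripts it was 0.04 and 0.01. Every Cbt array lay below every E2F1DP array for 71 transcripts at 24h (8.07% of all) and for 67 at 36h (11.5%). Cbt was at least 1 unit below E2F1DP for 64 at 24h (4.14%) and for 74 at 36h (6.48%). The order E2F1DP, Cbt, control held for the means of 90 transcripts at both stages. The rule put both lines above control, so this counts only where Cbt was below E2F1DP at both stages. Its share over all transcripts was not counted. Arrays of both lines were used by the rule, which set no limit between the lines, so the difference carries no test.

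The transcripts with the largest shortfall of Cbt at 24h were FBtr0070762 and FBtr0074809. FBtr0070762 read 11.41, 11.35, 11.59 and 11.89 in E2F1DP, 8.53, 8.90, 9.40 and 9.07 in Cbt and 7.99, 7.22, 7.94 and 8.17 in control. The lines did not overlap, and Cbt lay nearer to control. Its means at 36h were 10.82 in E2F1DP, 7.46 in Cbt and 6.14 in control, and at L3 they were 11.36, 10.79 and 11.06. FBtr0074809 had means at 24h of 10.36 in E2F1DP, 7.90 in Cbt and 5.66 in control, and L3 means of 9.79, 9.09 and 9.25. At 36h it read 10.46, 10.85, 11.02 and 10.48 in E2F1DP, 8.34, 5.89, 6.04 and 5.80 in Cbt, and 5.26, 5.03, 4.68 and 5.40 in control. The Cbt arrays other than replicate 1 then stood less than 1 unit above the control mean of 5.09 and replicate 1 more than 3 units above it.

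At 36h the largest shortfalls were those of FBtr0073806, given above, and FBtr0086787. FBtr0086787 read 14.63, 14.35, 14.44 and 14.36 in E2F1DP, 10.13, 10.42, 9.31 and 10.17 in Cbt, and 8.87, 8.92, 8.17 and 9.29 in control. Cbt lay only slightly above control, by 1.19 (SE 0.26), and E2F1DP by 5.63 (SE 0.26). Its means were 15.20 in E2F1DP, 15.11 in Cbt and 14.95 in control at L3, and 14.80, 12.85 and 11.08 at 24h.

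Cbt was above E2F1DP at both pupal stages for 7 transcripts, 4 of them larval-high, and the share over all transcripts was not counted. The largest excess was that of FBtr0085116. In Cbt it read 10.79, 10.88, 10.03 and 9.06 at 24h, then 7.92, 8.58, 7.95 and 8.72 at 36h. In E2F1DP it read 9.21, 9.11, 7.68 and 8.13 at 24h, then 6.46, 6.99, 5.82 and 7.08 at 36h. The lines overlapped at 24h through 1 Cbt array and were apart at 36h. In control it read 7.52, 8.04, 6.32 and 8.18 at 24h, then 5.62, 5.37, 5.52 and 5.60 at 36h, and its L3 means were 10.94 in control, 10.76 in E2F1DP and 10.92 in Cbt. At 24h the E2F1DP arrays overlapped control and the Cbt arrays did not. The next largest excess was that of FBtr0100369, a transcript that was higher in the control pupa than in the control larva, with means of 6.28, 8.94 and 8.27 in control at L3, 24h and 36h. Its E2F1DP means were 6.12, 9.96 and 9.29 and its Cbt means 6.15, 11.04 and 10.43 at those stages.

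**Figure D4:**
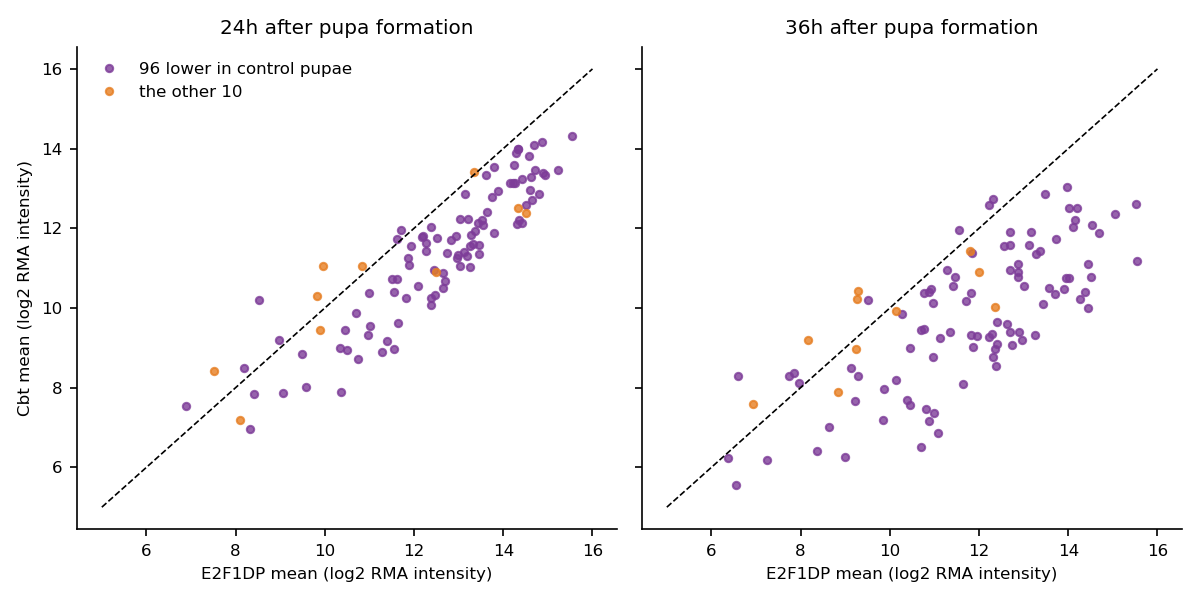
Group mean of the 106 transcripts in Cbt (vertical axis, log2 intensity) against E2F1DP (horizontal axis) at 24h and 36h, with the line of equal level, the 96 larval-high transcripts in purple and the other 10 in orange. The Cbt mean lies below the line for 95 transcripts at 24h and for 94 at 36h.

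The 10 transcripts that were not larval-high did not share a single course in control, as given above. Their median level was 7.04 in control at L3, 8.70 at 24h and 7.35 at 36h. In E2F1DP it was 10.39 at 24h and 9.27 at 36h, and in Cbt 10.97 and 9.97. In both lines and at both pupal stages 9 of the 10 stood at least 1 unit above the larval mean of their own line. Of all 15473 transcripts, 984 and 1701 did so in E2F1DP at 24h and 36h, and 1625 and 2133 in Cbt. The rule asked for a pupal level above control, and the 10 are those without the larval-high course, so the counts carry no test. Cbt and E2F1DP had no common order here, as the Cbt mean was below the E2F1DP mean for 5 of the 10 at 24h and for 6 at 36h.

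FBtr0083413 and FBtr0085737 had the highest 24h level relative to L3 in control. FBtr0083413 read 7.35, 6.59, 6.30 and 7.13 in control at L3, 10.43, 10.73, 10.71 and 11.28 at 24h, then 10.55, 10.86, 10.27 and 9.45 at 36h. At 24h it read 14.18, 13.68, 14.66 and 14.83 in E2F1DP and 12.14, 12.10, 12.96 and 12.80 in Cbt, and the 3 lines did not overlap. At 36h it read 12.07, 11.38, 11.60 and 12.14 in E2F1DP and 13.75, 10.06, 10.91 and 11.04 in Cbt, so Cbt overlapped both control and E2F1DP. Its L3 means were 7.08 in E2F1DP and 7.21 in Cbt.

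FBtr0085737 had a sharp peak in control, with 7.37, 7.98, 7.71 and 5.86 at L3, 11.83, 11.90, 11.89 and 11.81 at 24h, then 7.20, 6.91, 7.12 and 7.28 at 36h. Its difference of -4.73 between 36h and 24h was the lowest of all 15473 transcripts in control. At 24h both lines exceeded the peak by a similar amount, with 13.27, 13.22, 13.38 and 13.52 in E2F1DP and 13.45, 13.40, 13.62 and 13.20 in Cbt. At 36h it read 9.17, 9.73, 8.82 and 9.29 in E2F1DP and 12.62, 9.37, 8.74 and 10.17 in Cbt, all above control. Its L3 means were 6.81 in E2F1DP and 7.35 in Cbt.

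FBtr0074867 also peaked at 24h in control and reached a higher level in E2F1DP. It read 8.42, 8.90, 9.14 and 7.34 in control at L3, 8.91, 10.52, 10.35 and 10.83 at 24h, then 8.37, 9.43, 7.66 and 7.70 at 36h. In E2F1DP it read 7.14, 7.40 and 7.04 at L3, 14.37, 14.25, 14.87 and 14.52 at 24h, then 11.73, 12.83, 12.33 and 12.49 at 36h. In Cbt it read 8.53, 7.33, 7.27 and 8.38 at L3, 11.75, 11.89, 13.09 and 12.81 at 24h, then 13.32, 9.01, 8.63 and 9.12 at 36h. Its Cbt difference at 36h, 1.73 (SE 0.65), thus rested on replicate 1, and the other 3 Cbt arrays overlapped control. FBtr0080138 had means of 7.51 in control, 7.84 in E2F1DP and 6.88 in Cbt at L3, of 7.60, 9.82 and 10.30 at 24h, and of 6.77, 9.24 and 8.96 at 36h.

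At 36h the Cbt arrays differed in the level of most members. Replicate 1 was the highest of the 4 Cbt arrays for 85 of the 106 transcripts, where it was highest for 35.3% of all transcripts, and replicate 3 was the lowest for 91, where it was lowest for 24.6% of all. Without replicate 1 the median Cbt difference from control at 36h was 1.63, with 90 of the 106 at 1 or more, and the share of the control change that was missing was 36.5%. In control, replicate 3 was the lowest array for 57 of the 106 at 24h (36.0% of all) and for 71 at 36h (31.1%). Without replicate 3 of control and of E2F1DP at 24h, the pair with the lowest array medians over all transcripts, the share missing at 24h was 106% in E2F1DP and 64.3% in Cbt. What sets these arrays apart was not tested.

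Up to 4 arrays share a number in the names of their deposited files. It is taken here as the number of a slide, which no label states, and the 9 slides are numbered from 1 to 9 for this text. E2F1DP and control shared slide 5 and slide 6 at 24h, where 106 and 104 of the 106 differences were above 0, with medians of 3.70 and 3.29. At 36h they shared slide 2, where 105 were above 0 with a median of 3.69. The rule used these arrays, so the counts only describe how single slides bear out the group means. They were not made over all transcripts. No slide held Cbt and control of the same pupal stage. With a term for the slide in the limma model the median Cbt difference was 1.70 at 24h and 1.85 at 36h. The number called in Cbt at 24h went from 105, beside 5.97% of all transcripts called higher, to 75, beside 2.53% called in either direction.

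Low signal limits the size of some differences. A log2 level of 6.10 is the 25th percentile of all group means on these arrays. The control mean was below it for 9 of the 106 at 24h and for 19 at 36h, and for 20 at one or both. Their differences are not exact in size, since the files used here give no background level. No member was below it in every group, and in Cbt at 36h 1 was.

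The comparison of Cbt with control at L3 asked whether the transcripts already stood higher in Cbt before pupa formation. It is the comparison of the members whose transgene arrays the rule did not use, although the control arrays of L3 also served the larval limit on E2F1DP. The median difference over the 106 was -0.08, with a range from -0.63 to 1.11, beside a median of -0.01 over all transcripts. The difference was above 0 for 38 of the 106, beside 47.9% of all transcripts, and below 0 for 68, beside 52.1%. It was within 0.5 of control for 95 of the 106, beside 91.9% of all. With limma and a Benjamini-Hochberg adjusted p under 0.05, 1 of the 106 was called, in the higher direction, beside 0.769% of all transcripts in either direction. At an unadjusted p under 0.05 there were 4 of the 106, beside 7.10% of all. Every Cbt array lay above every control array for 7 of the 106, beside 4.18% of all.

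The precision of this comparison allows a bound. From a difference to either end of its 95% interval was 0.567 log2 units at the median. It lay wholly between -1 and 1 for 89 of the 106, reached 1 or more for 8 and reached -1 or less for 9. A larval difference of 1, the pupal limit of the rule, was therefore above the interval for 98 transcripts. On the slide taken as 1, the only one with control and Cbt arrays of L3, 48 of the 106 differences were above 0, with a median of -0.07. The same count over all transcripts was not made for this slide.

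The called transcript was FBtr0072585, which is named because of this call, after its values were seen. It read 11.87, 11.76, 11.52 and 11.74 in control at L3 and 12.33, 12.40, 12.28 and 12.54 in Cbt, with no overlap. The difference was 0.67 (SE 0.16, 95% interval 0.34 to 0.99, limma adjusted p = 0.0325). The call was lost without any one of the 4 Cbt arrays and without control replicate 2, 3 or 4, and over 15 alternatives the adjusted p ran from 0.00061 to 0.470. E2F1DP had a mean of 11.59 at L3. The pupal means were 10.67 in control, 11.70 in E2F1DP and 11.97 in Cbt at 24h, then 9.66, 12.55 and 11.56 at 36h.

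The largest larval differences of Cbt did not pass the test. FBtr0082378 read 12.69, 12.56, 12.94 and 12.97 in control at L3 and 14.07, 13.74, 14.01 and 13.76 in Cbt, a difference of 1.11 (SE 0.42, limma adjusted p = 0.387). The groups did not overlap at L3. The pupal means of FBtr0082378 were 8.90 in control, 10.99 in E2F1DP and 10.38 in Cbt at 24h, then 6.82, 7.84 and 8.36 at 36h, and its E2F1DP mean at L3 was 12.82. FBtr0076697 read 8.97, 8.06, 8.54 and 7.85 in control at L3 and 9.93, 9.13, 9.02 and 9.62 in Cbt, a difference of 1.07 (SE 0.33, limma adjusted p = 0.194), and here too no array overlapped. Its E2F1DP mean at L3 was 9.20, and its pupal means were 7.04, 8.18 and 8.50 at 24h, then 6.58, 7.74 and 8.29 at 36h in control, E2F1DP and Cbt. The lowest larval differences of Cbt were those of FBtr0080138, -0.63 (SE 0.51), and FBtr0074867, -0.57 (SE 0.65), both among the 10 transcripts that were not larval-high.

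**Figure D5:**
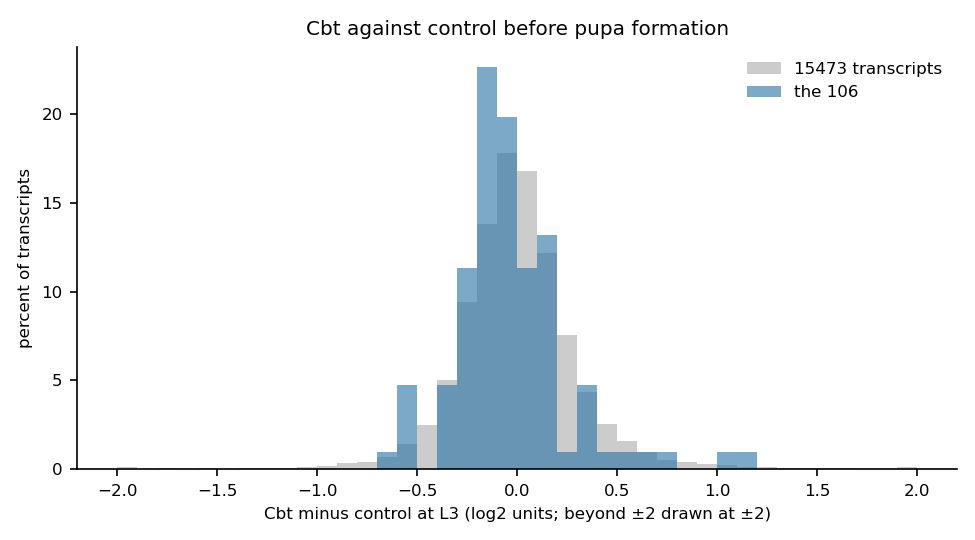
Distribution of the difference of Cbt from control at L3 (log2 units, horizontal axis) for the 106 transcripts and for all 15473, each as a percentage of its own number, with differences beyond 2 drawn at 2. The 106 centre on -0.08 and all transcripts on -0.01.

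E2F1DP at L3, which the rule held below 1 unit, had a median difference from control of 0.21 over the 106, with a range from -1.26 to 0.94, beside -0.01 over all transcripts. It was above 0 for 79 of the 106, beside 48.6% of all. Every E2F1DP array lay above every control array for 35 of the 106, beside 8.43% of all. With limma at an adjusted p under 0.05, 1 transcript was called, beside 0.860% of all transcripts, and at an unadjusted p under 0.05 there were 11, beside 8.32%. The limit of the rule bears on these counts. The called one was FBtr0076603, which read 12.04, 12.71, 12.63 and 12.12 in control at L3 and 13.33, 13.32 and 13.15 in E2F1DP, a difference of 0.90 (SE 0.22). Its Cbt mean at L3 was 12.54, and its pupal means were 8.67 in control, 12.96 in E2F1DP and 11.26 in Cbt at 24h, then 7.36, 13.25 and 9.31 at 36h. FBtr0075057 had the highest larval difference, 0.94 (SE 0.33), with readings of 9.99, 10.49, 10.51 and 10.39 in control and 11.25, 11.37 and 11.22 in E2F1DP, and a Cbt mean of 10.42. Neither transcript had overlapping arrays in this contrast. The pupal means of FBtr0075057 were 7.27, 11.64 and 9.63 at 24h, then 6.75, 10.96 and 8.78 at 36h in control, E2F1DP and Cbt.

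The lowest larval differences of E2F1DP were -1.26 (SE 0.70) for FBtr0074867 and -0.42 (SE 0.22) for FBtr0071550. FBtr0071550 read 12.64, 12.42, 12.40 and 12.57 in control and 12.11, 12.16 and 11.97 in E2F1DP, with a Cbt mean of 12.50. Its E2F1DP arrays were below every control array in the larva. In the pupa its means were 10.21 in control, 11.62 in E2F1DP and 11.74 in Cbt at 24h, then 8.20, 9.50 and 10.20 at 36h. On the slides taken as 3 and 4, which held E2F1DP and control arrays of L3, 77 and 70 of the 106 differences were above 0, with medians of 0.20 and 0.19. All transcripts were not counted on these slides, so a shift of a whole array cannot be told from a difference of the members.

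Membership depended on the limits and on single arrays. With each of the 31 arrays that the rule used left out in turn, the rule gave between 93 and 123 transcripts, of which between 90 and 106 were among the 106, and 73 of the 106 were found every time. The lowest number came without Cbt replicate 1 at 36h and the highest without Cbt replicate 3 at 36h. With each array centred on its median the rule gave 97 transcripts, all among the 106, and with the slide as a term it gave 97, of which 89 were among the 106. A pupal limit of 0.8 gave 157 and a limit of 1.5 gave 58.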

How the data were processed

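Cy3-labelled total RNA of dissected wings was measured on 1-colour NimbleGen arrays, per the labels' protocols. The authors deposited an intensity per transcript and array, which the submitters' processing notes credit to RMA, and a series table of log2 values. The deposited log2 values equalled log2 of the deposited intensity within 5.00001e-09. Intensities ran from 14.6 to 64595. RMA equalises the arrays it is run on, but the array medians of the deposited log2 values still ran from 9.25 to 10.02. The RMA settings, the arrays run together and the annotation release are not given in the sources used here. The number of arrays limits the precision.

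Group means of the log2 values gave the members by the rule. All 35 arrays entered 1 model of 9 group means in limma 3.58.1 in R 4.3.3, with empirical Bayes moderation (26 residual and 2.86 prior degrees of freedom) and Benjamini-Hochberg adjustment over 15473 transcripts. Calls used an adjusted p under 0.05. The code was tested on simulated data. Python 3.11.15, numpy 2.4.6, pandas 2.3.3 and matplotlib 3.10.9 made tables and figures. No pair of arrays correlated above 0.996 or had a root mean square difference under 0.310, so none was counted as a copy. P-values set a difference of group means against the moderated spread between arrays within groups, estimated over all 9 groups.

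The members, the lists and the tests were chosen with earlier results of these data known. Of the 15473 IDs, 44 appeared in the RefSeq gene table of Release 6, 17 under 1 gene, 27 under several and 15429 not at all. Of 179 entries in 17 gene lists, 3 matched a transcript of the array, none of them a member or a marker, so list counts were not made. Members are named by ID: for each comparison at most the 2 highest and the 2 lowest, and the 2 nearest to the pupal limit. Replicate numbers recur across groups. Deviations of arrays with the same number correlated between -0.363 and 0.734 over 23 pairs. Every pair was above 0.1 only for control and E2F1DP at 24h, with 0.306, 0.323, 0.734 and 0.457, a pairing that comes from the data. Alternatives were median centring, the slide as a term, a replicate block, array weights, only the groups compared, no dim transcripts, group medians, other limits and leaving out arrays.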

Additional observations from a re-analysis of the deposited data

Results flagged for a closer look

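Each named member, and the median of the members, was looked at in each group of 4 arrays for a single array far from the other 3, judged by its gap to the nearest array over the range of the group. Of 200 groups, 7 had such an array, and chance gives about 1 in 20. In control at 24h replicate 3 read 6.21 for FBtr0075057, below the others, and replicate 4 read 9.91 for FBtr0100369, above them. In control at 36h replicate 3 read 5.77 for FBtr0082279, below the others. In Cbt at L3 the median of the 106 on replicate 3 was 12.27, below the other 3 arrays, and replicate 4 read 11.06 for FBtr0085116, above them. In Cbt at 36h replicate 1 stood above the others, with 8.34 for FBtr0074809 and 13.32 for FBtr0074867.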

How the results depend on the processing

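The number of transcripts by the rule stayed within 1.5 times of 106 under every alternative other than a pupal limit of 1.5, which gave 58. Leaving out 1 array gave 93 to 123 by the rule, and left 94 to 96 lower at both pupal stages in control. The same changes gave 97 to 104 called in Cbt at 24h, 94 to 104 in Cbt at 36h, 103 to 106 in E2F1DP at 24h and 102 to 104 in E2F1DP at 36h. In the same order, the shares of all transcripts called in either direction were 5.49% to 8.97%, 5.14% to 9.19%, 23.8% to 29.2% and 20.7% to 22.1%. For Cbt at L3 limma called 1. It called 0 with each array centred, 0 with the slide as a term and 0 with the replicate block, with 4, 5 and 4 at an unadjusted p under 0.05. The shares of all transcripts called were 0.776%, 0.330% and 0.860%. Limma called 3 with array weights, beside 2.96% of all transcripts, and 2 with only the groups compared, beside 0.704%. At an unadjusted p under 0.05 there were 8 and 14, and the share of all transcripts at that p was not counted for these settings. With 1 array left out it called 0 to 1, beside 0.517% to 0.737% of all. There 3 to 5 had an unadjusted p under 0.05. For none of these alternatives was the share of all transcripts at that p counted, so the unadjusted counts are not read as a result about the members. For E2F1DP at L3 limma called 1. It called 12 with array weights, beside 5.18% of all transcripts, and 3 with only the groups compared, beside 0.795%. At an unadjusted p under 0.05 there were 37 and 38, and the share of all transcripts at that p was not counted for these settings. With 1 array left out it called 0 to 1, beside 0.330% to 0.814% of all. There 5 to 10 had an unadjusted p under 0.05, again without a count over all transcripts. Nothing about the members is read from these unadjusted counts. The replicate block gave 106 transcripts by the rule, all of them members, and 106, 104, 105 and 101 calls in E2F1DP at 24h and 36h and in Cbt at 24h and 36h. In the same order, 27.8%, 24.3%, 8.04% and 7.84% of all transcripts were called in either direction. Median centring moved the median of all transcripts for Cbt at 24h to -0.20, where that of the members was 1.89. It gave 59.4% for the share of the control change missing in Cbt at 24h. No named member changed direction where its difference was 1 or more. The cause of these shifts was not tested.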
